A study of Mus musculus with 12 samples.

Results

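RNA-Seq counts were examined for 10 genes of a block of mouse chromosome 9 around Rassf1: Slc38a3, Camkv, Gnai2, Nprl2, Sema3b, Rassf1, Tusc2, Hyal2, Gpx1 and Usp4. They are 10 of the 23412 genes of the table and 10 of the 41 that lie at 107.4 to 108.4 Mb in mm10. The genes were chosen by their measured levels in these libraries, because neighbouring genes of the interval were low together in Hmgn2-/- cells and Hmgn1-/-Hmgn2-/- mESCs, so their levels are given as a description with no test. The study asked how loss of the nucleosome-binding proteins HMGN1 and HMGN2 alters transcription in mESCs. It used male v6.5 mESCs, a hybrid mouse embryonic stem cell line, as WT, Hmgn1-/-, Hmgn2-/- and Hmgn1-/-Hmgn2-/- cells, with 3 libraries each and 12 in all. The study describes the 3 libraries as biological replicates collected from 6-well plates. Each knockout line was a single clone grown from an edited cell, and the double knockout was made from the Hmgn2-/- line, so the Hmgn2-/- and Hmgn1-/-Hmgn2-/- lines share a founder cell and genotype and clone cannot be told apart. The libraries held 17337908 to 31448468 counts.

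Levels are given as CPM, the counts of a gene scaled to a common library total, after scaling by the trimmed mean of M values (TMM), a library scaling that discounts strongly changed genes. Log2 FC is the log2 ratio between lines estimated by edgeR, with its standard error (SE) or 95% interval over 3 against 3 libraries, and 2 to that power gives the level as a percent of WT. A gene with 1 active copy in place of 2 is expected at 50% of WT if RNA follows gene dose, which is a log2 FC of -1. Gene copies were not measured here, and fewer cells that express a gene and less RNA per cell cannot be told apart in bulk RNA. A differentially expressed gene (DEG) had an adjusted p under 0.01 and a log2 FC of at least 1 in size, the limits of the study.

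The matching stretch of the short arm of human chromosome 3 is often lost in lung and other cancers, and several genes of this cluster are known as tumour suppressors. The genes lie close together but act in unrelated processes. Nprl2 is a subunit of GATOR1, the complex that restrains mTORC1 when amino acids are scarce, and Rassf1 is a scaffold that ties Ras-like proteins to the Hippo kinases and to microtubules. Hyal2 and Sema3b act at or outside the cell surface, Gnai2 and Camkv belong to signalling by G proteins and calmodulin, and Gpx1 and Usp4 are enzymes of peroxide removal and ubiquitin removal.

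The edited genes were read first. Hmgn1 had 661, 594 and 612 TMM-scaled CPM in the 3 WT libraries, 138, 139 and 142 in the Hmgn1-/- line, 546, 556 and 639.7 in the Hmgn2-/- line and 21.6, 19.9 and 21.5 in the Hmgn1-/-Hmgn2-/- line. Hmgn2 had 137, 121 and 119 TMM-scaled CPM in the 3 WT libraries, 106, 113 and 109 in the Hmgn1-/- line, 50.9, 54.5 and 53.7 in the Hmgn2-/- line and 53.9, 50.5 and 54.5 in the Hmgn1-/-Hmgn2-/- line. Hmgn1 was low in both lines that lack it and Hmgn2 in both lines that lack it, with no overlap with WT. Hmgn1 kept 22.5% of its WT level in Hmgn1-/- mESCs and 3.37% in Hmgn1-/-Hmgn2-/- mESCs, and Hmgn2 kept 42.2% and 42.1% in the lines edited at it. The edits were indels of 1 bp.

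In Hmgn1-/- mESCs 8 of the 10 genes, from Gpx1 at 96.7% to Sema3b at 122% of WT, had a 95% interval that held the WT level. The intervals of Slc38a3 and Gnai2 lay above it. All 10 genes lay at 42.4% to 54.2% of WT in the lines that lack Hmgn2. The median of the 10 levels was 105% of WT in Hmgn1-/- mESCs, 50.7% in Hmgn2-/- cells and 48.6% in Hmgn1-/-Hmgn2-/- mESCs, against medians over all genes tested of 100.3%, 101% and 100.3%. In Hmgn2-/- mESCs the lowest was Nprl2 at 46.1% and the highest was Gnai2 at 54.1%, and the 95% interval held 50% for 10 of 10 genes. In Hmgn1-/-Hmgn2-/- mESCs the levels ran from 42.4% for Sema3b and Gpx1 to 54.2% for Gnai2, and the interval held 50% for 8 of 10, with Gpx1 below it and Gnai2 just above it. In Hmgn1-/- mESCs the interval held 100% for 8 of 10 genes and held 50% for 0 of 10. These 3 comparisons share the WT libraries, so they are given side by side and are not independent of each other.

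Counted by library, all 10 genes were lower in each Hmgn2-/- library than in each WT library, as were 18.7% of all genes tested, and 10 of 10 were lower in each Hmgn1-/-Hmgn2-/- library, as were 20.8% of all genes. At an adjusted p under 0.01 with no fold limit, 10 of 10 were lower in Hmgn2-/- mESCs (6.66% of all genes) and 10 of 10 in Hmgn1-/-Hmgn2-/- mESCs (10.2% of all genes). Sema3b in Hmgn2-/- mESCs, at log2 FC -1.022, was not under this adjusted p limit with the replicate number as a block. With the fold limit, 4 of 10 were lower DEGs in Hmgn2-/- mESCs (4.38% of all genes) and 6 of 10 in Hmgn1-/-Hmgn2-/- mESCs (5.0% of all genes). DEGs in either direction made up 5.15% and 6.3% of all genes in these lines. The genes were chosen from these contrasts, and nothing is read from the counts. A 50% level lies on the fold limit itself: in Hmgn2-/- mESCs Sema3b passed it at a log2 FC of -1.015 and Usp4 missed it at -0.999. The DEG count of 4 became 2 without WT replicate 2 and 2 without Hmgn2-/- replicate 1. In Hmgn1-/- mESCs 1 of 10 was a DEG, Slc38a3, as were 5.98% of all genes in either direction.

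**Figure D1:**
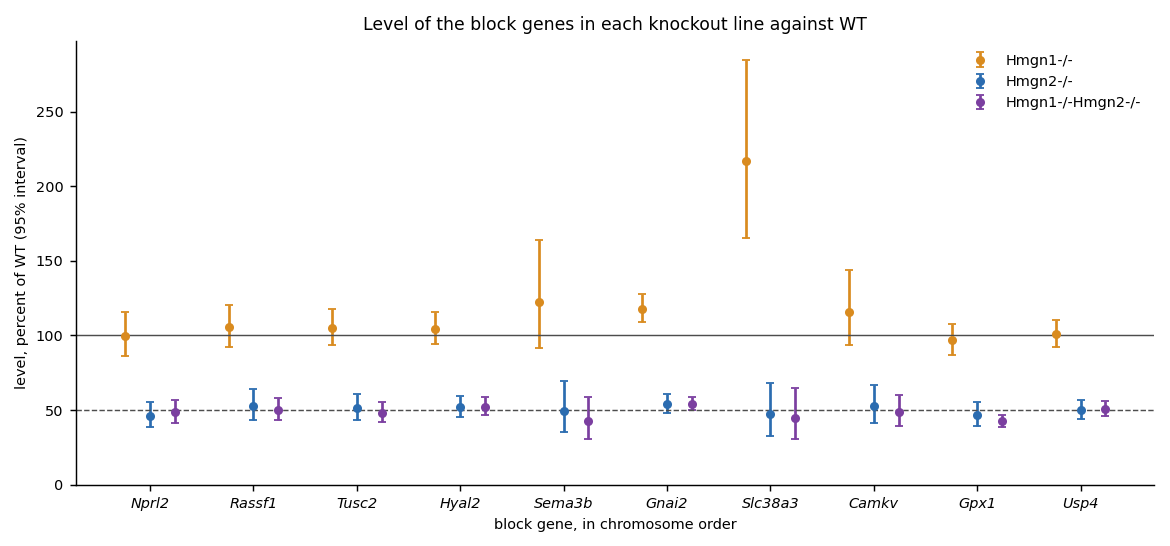
Level of each gene as a percent of WT (y axis) in Hmgn1-/-, Hmgn2-/- and Hmgn1-/-Hmgn2-/- mESCs, with bars for the 95% interval of edgeR over 3 against 3 libraries, genes in chromosome order, a solid line at 100% and a dashed line at 50%. In both lines that lack Hmgn2 the points lie around the dashed line, with the interval of Gpx1 below it and that of Gnai2 just above it in the double knockout, while Slc38a3 in Hmgn1-/- mESCs stands at 217%.

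Nprl2, Rassf1 and Tusc2 are the growth-restraining genes of the block. Nprl2 had 15.2, 15.1 and 15.7 TMM-scaled CPM in the 3 WT libraries, 15.1, 14.5 and 16.6 in the Hmgn1-/- line, 6.85, 6.89 and 7.55 in the Hmgn2-/- line and 7.14, 7.77 and 7.51 in the Hmgn1-/-Hmgn2-/- line. The Hmgn1-/- libraries overlapped those of WT, and the 6 libraries without Hmgn2 lay below both with no overlap. The level of Nprl2 was 46.1% (95% interval 38.7 to 55.1%) of WT in Hmgn2-/- cells and 48.4% (95% interval 41.5 to 56.6%) in Hmgn1-/-Hmgn2-/- mESCs. Rassf1 lies on the plus strand at chr9:107551434-107562267 (mm10). It had 24.02, 22.9 and 26.7 TMM-scaled CPM in the 3 WT libraries, 27.5, 25.9 and 24.6 in the Hmgn1-/- line, 12.4, 11.5 and 15.2 in the Hmgn2-/- line and 12.9, 11.5 and 12.6 in the Hmgn1-/-Hmgn2-/- line. Its highest library without Hmgn2, Hmgn2-/- replicate 3, stayed below its lowest WT library. The level of Rassf1 was 106% (95% interval 92.5 to 120.3%) of WT in Hmgn1-/- mESCs, 52.8% (95% interval 43.5 to 64.1%) in Hmgn2-/- cells and 50.1% (95% interval 43.5 to 57.8%) in Hmgn1-/-Hmgn2-/- mESCs. Tusc2, a mitochondrial protein and tumour suppressor, had 30.1 to 32.9 TMM-scaled CPM in WT and 31.2 to 33.97 in Hmgn1-/- mESCs, against 14.7 to 18.3 in Hmgn2-/- cells and 13.5 to 16.97 in Hmgn1-/-Hmgn2-/- mESCs. Its levels were 51.4% and 48.1% of WT in the lines without Hmgn2. An antisense gene, Gm9917, overlaps 42.7% of the exon bases of Rassf1 and 27.1% of those of Tusc2, and the use of strand in counting is not given in the sources used here, so reads of the overlap cannot be assigned to a strand.

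The stretches before the starts of 3 of the genes are shown because these genes moved together, Rassf1 and Tusc2 as neighbours and Gpx1 787.6 kb from the start of Rassf1. The sequences are the 250 bases upstream of a transcript start, shortened to 129 for Rassf1 to end before its first start, in the RefSeq promoter table of GRCm38.p6 (mm10), plus strand, 5′ to 3′, at chr9:107551305-107551433 for Rassf1, chr9:107563005-107563254 for Tusc2 and chr9:108338830-108339079 for Gpx1. Capitals mark any match, on either strand, to the GC box, the CCAAT motif, the TATA motif, the E-box, an ETS motif or part of the NRF1 motif, which are spelled out below.
Rassf1: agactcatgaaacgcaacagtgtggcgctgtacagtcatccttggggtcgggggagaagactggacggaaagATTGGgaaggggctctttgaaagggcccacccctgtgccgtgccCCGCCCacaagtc
Tusc2: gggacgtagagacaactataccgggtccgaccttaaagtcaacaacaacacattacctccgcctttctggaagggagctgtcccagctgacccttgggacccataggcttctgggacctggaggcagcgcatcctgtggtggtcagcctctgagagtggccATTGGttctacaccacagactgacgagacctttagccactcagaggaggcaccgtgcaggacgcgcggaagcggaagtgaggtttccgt
Gpx1: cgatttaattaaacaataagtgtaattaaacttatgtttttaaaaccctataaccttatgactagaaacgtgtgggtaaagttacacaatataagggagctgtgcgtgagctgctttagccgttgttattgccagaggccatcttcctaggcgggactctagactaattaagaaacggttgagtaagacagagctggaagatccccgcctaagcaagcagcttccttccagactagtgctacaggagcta

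The promoter table held 7 of the 10 genes with 8 promoters: Nprl2, Rassf1 (2 starts), Tusc2, Hyal2, Camkv, Gpx1 and Usp4. The 250 bases cross the first base of the gene at Nprl2, Camkv and the first start of Rassf1. They lie inside the gene at Hyal2, Usp4 and the second start of Rassf1, so the counts below include bases of these genes. The GC box (GGGCGG) was in 5 of the 8, at both starts of Rassf1 and at Hyal2, Camkv and Usp4, and in 32.7% of the 32851 promoters of the table over the same 250 bases, which for Rassf1 run past the letters shown. The CCAAT motif was in 2 of 8 (Rassf1 and Tusc2) and 33.8% of all promoters, the ETS motif (CCGGAAG) in 2 of 8 (Nprl2 and the second start of Rassf1) and 6.91%, the E-box (CACGTG) in 1 of 8 (Usp4) and 6.02%, the NRF1 part (GCATGCGC) in 1 of 8 (Camkv) and 2.26%, and the TATA motif (TATAAA) in 0 of 8 and 12.4%. Gpx1 had none of these letters in its window. CpG counts ran from 7 at Gpx1 to 26 at Usp4, against a median of 6 over all promoters. Thus none of the motifs searched was in all 8 promoters. A match is a description of the letters and not a bound site.

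Hyal2, Sema3b and Slc38a3 act at or outside the cell surface. Hyal2, a hyaluronidase anchored to the membrane, had 43.9 to 47.9 TMM-scaled CPM in WT, 45.7 to 50.7 in Hmgn1-/- mESCs, 23.2 to 24.8 in Hmgn2-/- cells and 23.5 to 24.5 in Hmgn1-/-Hmgn2-/- mESCs, or 104%, 51.9% and 52.3% of WT in the 3 knockout lines. Sema3b, a secreted guidance ligand that binds neuropilins, was among the least counted of the 10, with 38 to 138 counts a library. It had 3.65, 4.42 and 3.15 TMM-scaled CPM in the 3 WT libraries, 5.302, 3.49 and 4.78 in the Hmgn1-/- line, 1.58, 1.74 and 2.26 in the Hmgn2-/- line and 1.31, 1.896 and 1.56 in the Hmgn1-/-Hmgn2-/- line. Its level of 122% (95% interval 91.3 to 164%) of WT in Hmgn1-/- mESCs had an interval that held 100%, and the 49.5% (95% interval 35.2 to 69.6%) in Hmgn2-/- cells and 42.4% (95% interval 30.6 to 58.8%) in Hmgn1-/-Hmgn2-/- mESCs held 50%.

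Slc38a3, a sodium-coupled glutamine transporter, differed from the other 9 genes in Hmgn1-/- mESCs. It had 4.93, 3.41 and 2.94 TMM-scaled CPM in the 3 WT libraries, 8.88, 8.36 and 7.63 in the Hmgn1-/- line, 1.81, 1.89 and 1.61 in the Hmgn2-/- line and 1.38, 2.21 and 1.56 in the Hmgn1-/-Hmgn2-/- line. All Hmgn1-/- libraries lay above all WT libraries, and all 6 libraries without Hmgn2 lay below them. Slc38a3 stood at 217% (95% interval 166 to 285%) of WT in Hmgn1-/- mESCs, a log2 FC of 1.12 (SE 0.182), with 27 to 231 counts a library. It was not a DEG without WT replicate 3, when its level was 193% of WT. Without WT replicate 1 its level was 262% of WT. In the lines without Hmgn2 it stood at 47.1% (95% interval 32.7 to 67.8%) and 44.5% (95% interval 30.7 to 64.7%) of WT, and Hmgn1-/-Hmgn2-/- mESCs had 95.1% (95% interval 66.2 to 137%) of the Hmgn2-/- level.

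**Figure D2:**
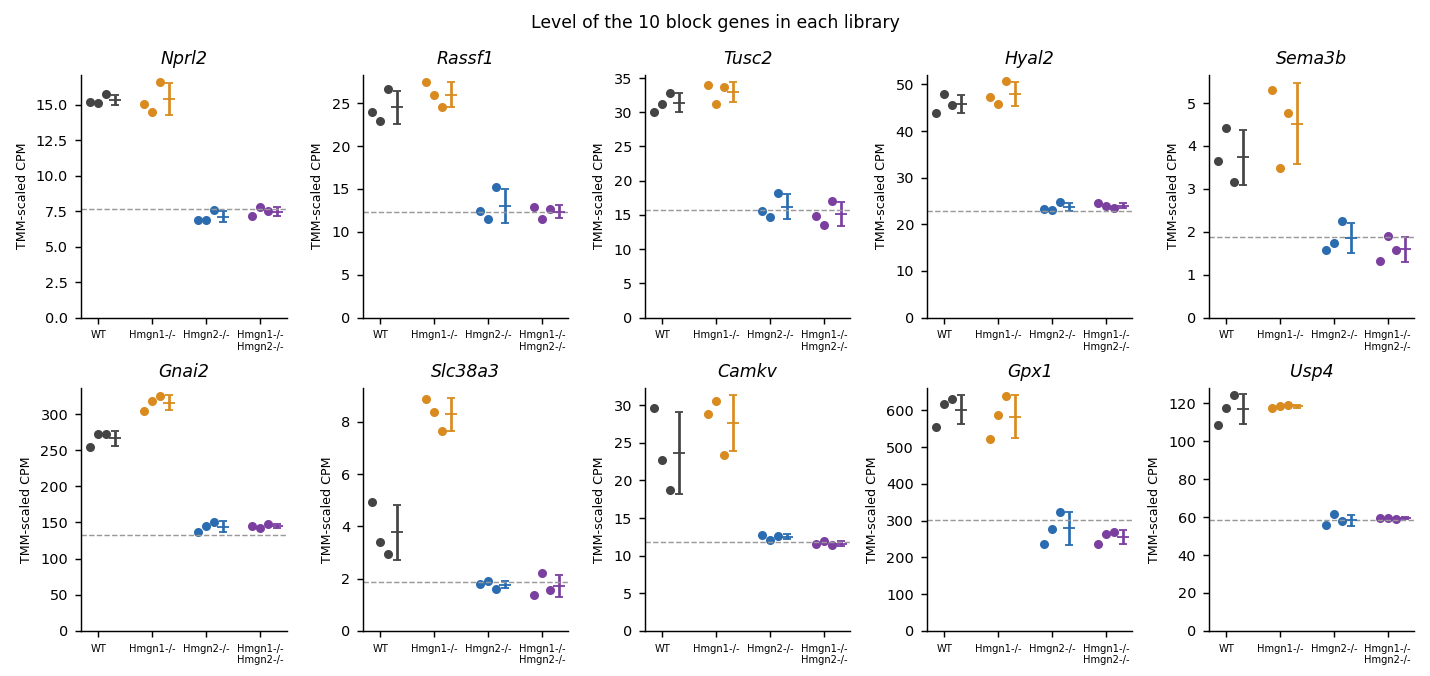
TMM-scaled CPM (y axes, from 0) of the 10 genes in each of the 12 libraries, as points, with the mean and SD of 3 libraries to the right of each line's points and a dashed line at 50% of the WT mean. For each gene the 6 libraries of the lines that lack Hmgn2 lie below all WT libraries, and Slc38a3 is highest in the Hmgn1-/- libraries.

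Gnai2 and Camkv belong to signalling. Gnai2, the alpha subunit of an inhibitory G protein that lowers cyclic AMP, had 255, 273 and 272 TMM-scaled CPM in the 3 WT libraries, 304, 318 and 325 in the Hmgn1-/- line, 137, 145 and 151 in the Hmgn2-/- line and 144, 143 and 148 in the Hmgn1-/-Hmgn2-/- line. Its Hmgn1-/- libraries were all above those of WT, at 118% (95% interval 109 to 128%) of WT. Gnai2 and Slc38a3 were the 2 of 10 genes higher in every Hmgn1-/- library, as were 21.9% of all genes tested. In the lines without Hmgn2, Gnai2 stood at 54.1% (95% interval 48.2 to 60.8%) and 54.2% (95% interval 50.01 to 58.6%) of WT. Relative to Hmgn1-/- mESCs, where it was higher, the Hmgn1-/-Hmgn2-/- level of Gnai2 was 45.9% (95% interval 42.5 to 49.5%). Camkv, a pseudokinase related to the CaM kinases, had 29.6, 22.7 and 18.7 TMM-scaled CPM in the WT libraries, a wide spread with WT replicate 1 highest. It had 28.9, 30.5 and 23.4 in Hmgn1-/-, 12.8, 12.1 and 12.6 in Hmgn2-/- and 11.5, 11.9 and 11.4 in Hmgn1-/-Hmgn2-/- mESCs. The 6 libraries without Hmgn2 were within 11.4 to 12.8 TMM-scaled CPM. Camkv stood at 52.8% (95% interval 41.6 to 67.005%) of WT in Hmgn2-/- mESCs, or 60.4% without WT replicate 1 and 47.5% without WT replicate 3.

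Gpx1 and Usp4 sit at the far end of the block and are enzymes. Gpx1, a selenium-dependent glutathione peroxidase that removes hydrogen peroxide, had 556, 617 and 630.0 TMM-scaled CPM in the 3 WT libraries, 523, 588 and 638 in the Hmgn1-/- line, 236, 276 and 323 in the Hmgn2-/- line and 235, 264 and 269 in the Hmgn1-/-Hmgn2-/- line. It was the most abundant of the 10 genes and showed no overlap between the 6 libraries without Hmgn2 and the other 6. The level of Gpx1 was 96.7% (95% interval 86.9 to 108%) of WT in Hmgn1-/- mESCs, 46.4% (95% interval 39.1 to 55.04%) in Hmgn2-/- cells and 42.4% (95% interval 38.4 to 46.8%) in Hmgn1-/-Hmgn2-/- mESCs. The last interval lay below 50%. Usp4, a ubiquitin-specific protease, had 108, 118 and 124 TMM-scaled CPM in the 3 WT libraries, 118, 119 and 119 in the Hmgn1-/- line, 55.9, 61.6 and 57.7 in the Hmgn2-/- line and 59.8, 59.8 and 59.2 in the Hmgn1-/-Hmgn2-/- line. Its levels of 50.04% (95% interval 44.01 to 56.9%) and 50.8% (95% interval 46.2 to 55.9%) of WT in the lines without Hmgn2 were close to 50%, and its level in Hmgn1-/- mESCs was 101% (95% interval 92.4 to 111%) of WT.

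To compare genes, levels were divided by exon length in kb. This length counts every base that lies in an exon of any transcript of the gene, and the order of the genes depends on it. In WT, Gpx1 led with 417 ± 27.5 TMM-scaled CPM per kb (SD, n = 3), then Gnai2 with 70.5 ± 2.69, Tusc2 with 17.6 ± 0.784, Hyal2 with 13.9 ± 0.598, Usp4 with 13.5 ± 0.9202, Nprl2 with 7.62 ± 0.174, Camkv with 6.28 ± 1.46 and Rassf1 with 4.19 ± 0.3300. Sema3b with 0.783 ± 0.134 and Slc38a3 with 0.713 ± 0.197 were lowest and did not differ beyond their spread, nor did Hyal2 and Usp4, nor Nprl2 and Camkv. Gpx1 was at rank 93 of 23052 genes with an exon length and Slc38a3 at rank 11359. In Hmgn2-/- mESCs the order was much the same, from 193 ± 30.4 for Gpx1 and 38.2 ± 1.94 for Gnai2 to 0.335 ± 0.0280 for Slc38a3.

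**Figure D3:**
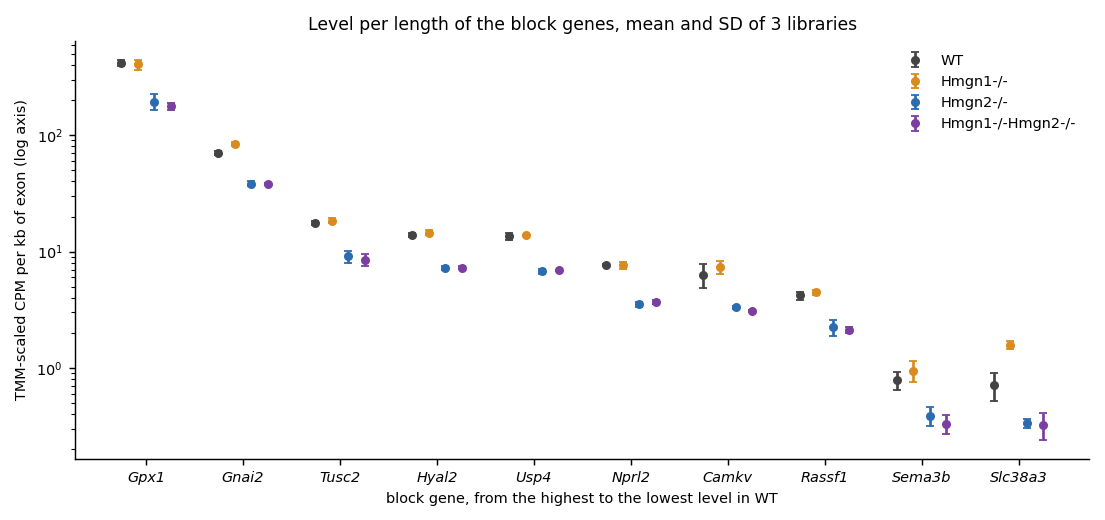
TMM-scaled CPM per kb of exon (y axis, log scale) of the 10 genes, as the mean and SD of 3 libraries in each line, ordered by the WT level. Gpx1 lies highest and Sema3b and Slc38a3 lowest, and the gap between the lines with and without Hmgn2 recurs at each level.

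The knockout lines were then compared with each other, without the WT libraries. Hmgn1-/-Hmgn2-/- mESCs had 105% (Nprl2) to 86.0% (Sema3b) of the Hmgn2-/- level, with a median of 95.2%, and the 95% interval held 100% for 10 of 10 genes, as for 13203 of all 13816 genes tested, so this is no result about the 10. Same-numbered libraries of these 2 lines deviate together. With the replicate number as a block, a fit chosen after seeing the data, genes past the threshold numbered 32 against 6 without it, with 0 of the 10 among them in either fit, and the interval again held 100% for 10 of 10, with a median of 95.5%. Against Hmgn1-/- mESCs, the Hmgn1-/-Hmgn2-/- levels had a median of 45.9% and ran from 20.4% for Slc38a3 to 50.3% for Usp4. The interval held 50% for 5 of 10 genes (Nprl2, Rassf1, Tusc2, Hyal2 and Usp4) and lay below it for Sema3b, Gnai2, Slc38a3, Camkv and Gpx1. In this comparison 8 of 10 were lower DEGs (0.16% of all genes), 10 of 10 were lower at an adjusted p under 0.01 (0.43%) and 10 of 10 were lower in every library (7.19%). This comparison shares no library with that of Hmgn2-/- cells and WT, but the double knockout line comes from the Hmgn2-/- line. The levels in the double knockout libraries were also part of the choice of the 10 genes. The counts are therefore a description, and nothing is read from them.

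**Figure D4:**
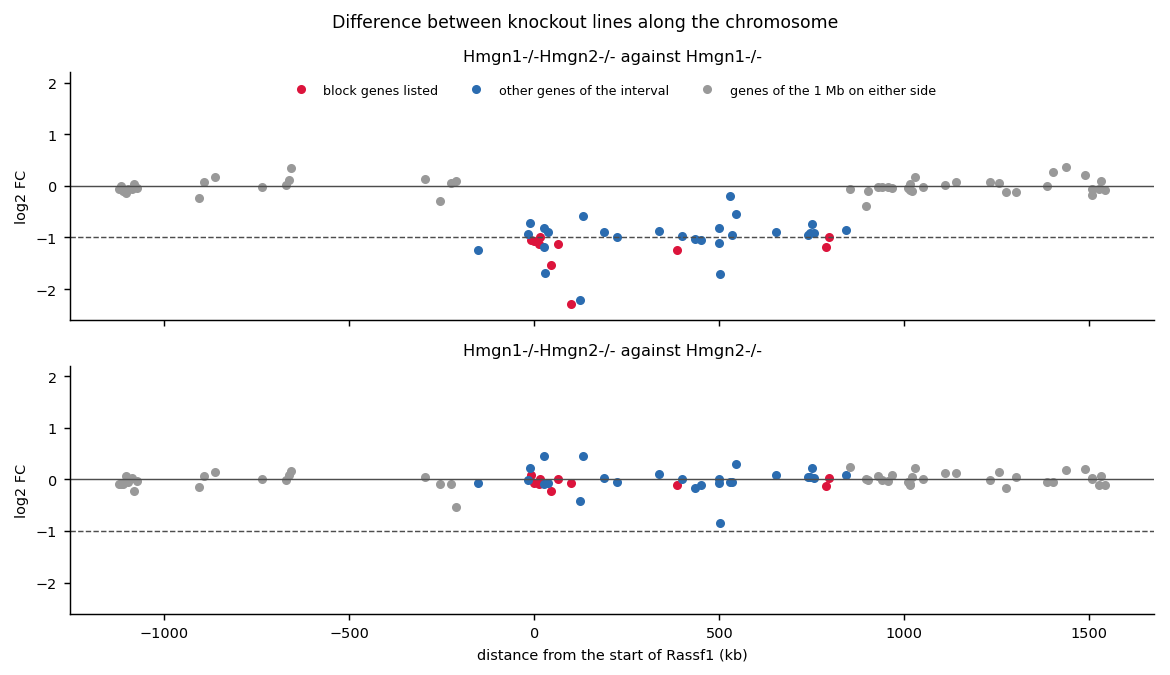
Log2 FC (y axis) of tested genes by distance in kb from the start of Rassf1 (x axis), for Hmgn1-/-Hmgn2-/- against Hmgn1-/- mESCs (top) and against Hmgn2-/- mESCs (bottom), with a solid line at 0 and a dashed line at -1. In the top panel 25 of 37 genes of the interval lie within 0.25 of the dashed line. In the bottom panel the genes of the interval run from -0.84 to 0.46.

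The other genes of the interval had similar median levels and a range wider than that of the 10. They ran from 33.8% to 79.8% of WT in Hmgn2-/- mESCs and from 27.2% to 92.5% in Hmgn1-/-Hmgn2-/- mESCs. The 10 genes span 850.4 kb, from Nprl2 to Usp4, and 7 of them, from Nprl2 to Slc38a3, lie within 126.8 kb. Of the 31 other genes of the interval, 27 were tested in Hmgn2-/- mESCs, with a median log2 FC of -0.90, and 27 of 27 were below 0, as were 6686 of all 14047 genes tested. In Hmgn1-/-Hmgn2-/- mESCs 26 were tested, with a median of -0.87, and in Hmgn1-/- mESCs the median of 27 was 0.14. Among these, 23 of 27 were lower in every Hmgn2-/- library (2629 of 14047 genes overall) and 23 of 26 in every Hmgn1-/-Hmgn2-/- library (2936 of 14128 overall). Of the other genes of the interval, 21 averaged 50 counts or more. Within 0.25 of a log2 FC of -1 were 15 of these 21 (71.4%) in Hmgn2-/- cells and 17 (81.0%) in Hmgn1-/-Hmgn2-/- mESCs. The shares of all genes that averaged 50 counts or more were 2.85% and 2.84%. The interval itself was chosen with these levels in view, so these shares are a description.

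The genes tested next to the interval were not low in Hmgn2-/- mESCs. The first gene tested before the interval, 6430571L13Rik, had log2 FC 0.25 (SE 0.388) in Hmgn2-/- mESCs, and the gene before it, Hemk1, chosen after its values were seen, had 0.32 (SE 0.131). On the other side Ccdc36, the first gene tested past the interval, had 0.33 (SE 0.192) in Hmgn2-/- cells and 0.58 (SE 0.175) in Hmgn1-/-Hmgn2-/- mESCs. Between them, Cacna2d2 at the start of the interval, chosen after its values were seen, had -0.76 (SE 0.209) and Usp4 near its end -0.999 (SE 0.0842). The last gene tested in the interval, 1700102P08Rik, chosen after its values were seen, had -0.33 (SE 0.471), with an interval that held both 50% and 100% of WT, so it places the edge on neither side. In the 1 Mb before the interval the median of 19 genes was 0.10 in Hmgn2-/- cells and 0.03 in Hmgn1-/-Hmgn2-/- mESCs, and in the 1 Mb after it the median of 28 genes was 0.10 and 0.07. Single genes of these 1 Mb stretches lay far from WT, here named after their values were seen: in Hmgn1-/-, Hmgn2-/- and Hmgn1-/-Hmgn2-/- mESCs in turn, Dock3, before the interval, stood at 186%, 210.2% and 236% of WT, Grm2 on the same side at 44.98%, 42.9% and 38.4%, and Col7a1, past the interval, at 31.1%, 39.03% and 37.7%. The summed level of the 41 genes of the interval was 2283 ± 74.6 TMM-scaled CPM in WT, 2372 ± 65.7 in Hmgn1-/- mESCs, 1181 ± 40.1 in Hmgn2-/- cells and 1163 ± 10.8 in Hmgn1-/-Hmgn2-/- mESCs (SD, n = 3). That is 51.7% and 50.9% of WT in the lines without Hmgn2, while the 40 genes of the 1 Mb after the interval summed to 106% and 105% of WT.

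**Figure D5:**
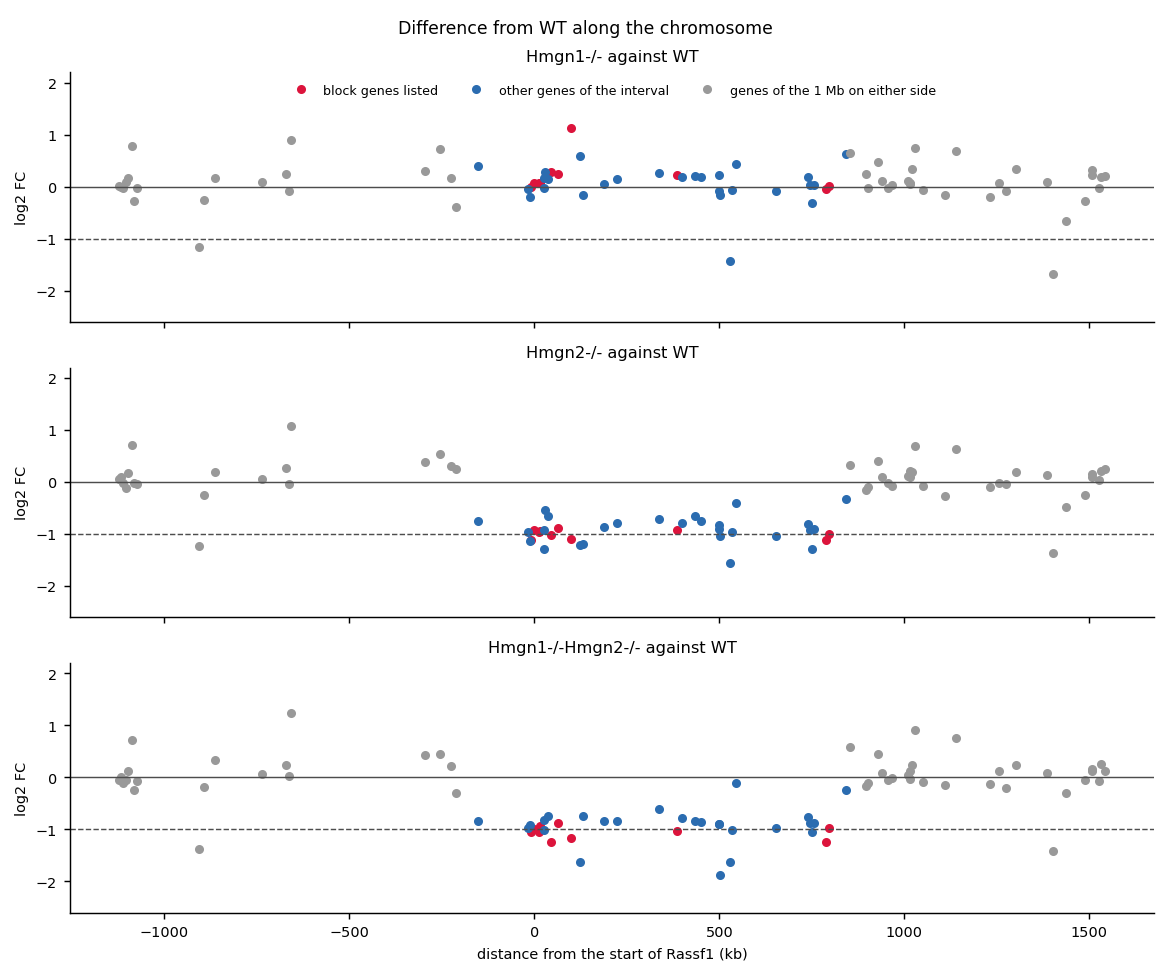
Log2 FC against WT (y axis) of tested genes by distance in kb from the start of Rassf1 (x axis) in Hmgn1-/-, Hmgn2-/- and Hmgn1-/-Hmgn2-/- mESCs, with the 10 listed genes in red, other genes of the interval in blue and genes of the 1 Mb on either side in grey. In the lines without Hmgn2 most genes of the interval lie near the dashed line at -1. Within 0.25 of it are 27 of 37 in Hmgn2-/- mESCs and 28 of 36 in Hmgn1-/-Hmgn2-/- mESCs. These counts include the 10 listed genes, which were chosen by their levels. Most grey genes lie near 0.

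Other genes of the interval also passed the DEG threshold. Mst1, a ligand of the kinase Mst1r, was a lower DEG in all 3 knockouts, at 37.1% of WT in Hmgn1-/- mESCs, 33.8% in Hmgn2-/- cells and 32.3% in Hmgn1-/-Hmgn2-/- mESCs, with 5 to 55 counts a library. Gnat1, a transducin subunit, was a DEG in both lines without Hmgn2, at 43.3% (95% interval 28.8 to 64.9%) and 32.3% (95% interval 20.7 to 50.3%) of WT. Mst1 and Gnat1 were not DEGs in Hmgn2-/- mESCs with the replicate number as a block, at log2 FC -1.48 and -1.21. Amigo3, an adhesion protein, was at 27.2% (95% interval 15.4 to 47.9%) in Hmgn1-/-Hmgn2-/- mESCs. The other DEGs of the interval were Cyb561d2 (45.7%), the hyaluronidase Hyal1 (41.2%), the semaphorin Sema3f (43.97%), the laminin receptor Dag1 (48.5%) and Tcta (41.2%) in Hmgn2-/- mESCs, and Nat6 (49.3%), the peptidase Apeh (49.3%) and Tcta (48.1%) in Hmgn1-/-Hmgn2-/- mESCs. The 95% interval held 50% for each of these in the lines without Hmgn2, apart from Amigo3. Bsn, a presynaptic scaffold chosen after its values were seen, stood highest among genes that averaged 50 counts or more, at 76.02% and 92.5% of WT.

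The genes most like the block outside it were found by Pearson correlation over the 12 libraries with the median of the 10 genes, among 11555 genes that averaged 50 counts or more. They were Birc5 (r = 0.989), Grb10 (r = 0.986), Tk1 (r = 0.979), Syngr2 (r = 0.975) and Tmc6 (r = 0.975), and the 12 points form 2 groups of libraries, so r measures the gap between lines with and without Hmgn2. Birc5, an inhibitor of apoptosis needed in mitosis, had 148 ± 2.69 TMM-scaled CPM in WT, 147 ± 8.85 in Hmgn1-/- mESCs, 74.6 ± 10.9 in Hmgn2-/- cells and 72.99 ± 4.41 in Hmgn1-/-Hmgn2-/- mESCs (SD, n = 3). Tk1, the thymidine kinase of dividing cells, had 103 ± 2.03, 107 ± 7.02, 60.7 ± 6.62 and 58.4 ± 4.27 in the same lines. Birc5, Tk1, Syngr2 and Tmc6 lie within 89.8 kb of each other on chromosome 11. Grb10, an imprinted gene that codes for a growth factor receptor adaptor, lies elsewhere on chromosome 11 and fell further, from 319 ± 16.1 in WT to 34.6 ± 4.68 in Hmgn2-/- mESCs. Over 344 other windows of 1 Mb with at least 10 such genes, the lowest median log2 FC in Hmgn2-/- mESCs was -0.76, in the window of chromosome 11 that starts at 117 Mb, and the next was -0.45 on chromosome 7, against -0.92 in the interval of chromosome 9. That interval was placed with these levels in view and holds the 10 chosen genes, while the other windows start at whole Mb. Its place below them is therefore a description and no ranking of the genome.

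Genes that work with the 10 were read from lists by function, without the genes of the interval. Of 152 list genes tested in Hmgn2-/- mESCs, 4 fell and 0 rose as DEGs by edgeR, against 615 lower and 109 higher of all 14047 genes. With the fold limit dropped, 9 were lower and 7 higher, against 936 and 464 of all 14047 genes. Of 33 genes of amino acid sensing around Nprl2, Rragd, a Rag GTPase, fell in all 3 knockouts (log2 FC -1.48, SE 0.103, adjusted p = 6.11e-06 in Hmgn2-/- mESCs, and log2 FC -1.27, SE 0.0776, adjusted p = 8.8e-08 in Hmgn1-/- mESCs), and the median log2 FC of the list was 0.05 in Hmgn2-/- mESCs. Of 17 genes of the RASSF family and the Hippo kinases, Rassf4 fell in all 3 knockouts (log2 FC -2.55, SE 0.263, adjusted p = 8.2e-05 in Hmgn2-/- mESCs), and Rassf9 and the kinase Lats2 fell in Hmgn1-/- mESCs (log2 FC -1.22, SE 0.218, adjusted p = 0.000877 for Lats2). Of 22 genes of peroxide removal around Gpx1, 0 passed in Hmgn2-/- cells and the glutathione synthetase Gss fell in Hmgn1-/- mESCs (log2 FC -1.004, SE 0.105, adjusted p = 9.91e-06), with log2 FC -0.995 and so no DEG when the replicate number was a block. The lists of 20 heterotrimeric G protein genes, 14 of glutamine transport and use and 19 ubiquitin-specific proteases held 0 DEGs in each knockout by edgeR. With no fold limit, 5, 3 and 5 of the 14 glutamine genes were higher in Hmgn1-/-, Hmgn2-/- and Hmgn1-/-Hmgn2-/- mESCs and 1, 0 and 1 lower. Of the G protein genes 3, 1 and 2 were higher and 1, 0 and 1 lower, and of the proteases 1, 1 and 1 were higher and 1, 0 and 1 lower. Of the 22 genes of peroxide removal, 5, 1 and 4 were higher and 2, 1 and 2 lower.

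Around Hyal2, Cd44, the main hyaluronan receptor, fell in all 3 knockouts (log2 FC -2.12, SE 0.317, adjusted p = 0.000932 in Hmgn2-/- mESCs), from 1.74 ± 0.357 TMM-scaled CPM in WT to 0.392 ± 0.102 (SD, n = 3), and 9930013L23Rik, listed as Cemip, rose in Hmgn1-/-Hmgn2-/- mESCs (log2 FC 1.43, SE 0.2504, adjusted p = 0.000727). Around Sema3b, the receptor Nrp2 fell in Hmgn2-/- mESCs (log2 FC -1.21, SE 0.201, adjusted p = 0.00172) and in Hmgn1-/-Hmgn2-/- mESCs (log2 FC -1.53, SE 0.192, adjusted p = 4.7e-05), Sema3e fell in Hmgn1-/- mESCs and Hmgn1-/-Hmgn2-/- mESCs (log2 FC -1.28, SE 0.103, adjusted p = 9.13e-07 in the latter), and Sema3c fell in Hmgn1-/-Hmgn2-/- mESCs (log2 FC -1.09, SE 0.272, adjusted p = 0.00804). Of the calmodulin and CaM kinase list around Camkv, Camk2d fell in Hmgn1-/- mESCs (log2 FC -1.29, SE 0.168, adjusted p = 7.15e-05). Without the fold limit, 1, 1 and 2 genes of this list were higher in Hmgn1-/-, Hmgn2-/- and Hmgn1-/-Hmgn2-/- mESCs and 2, 2 and 2 lower. Missing the threshold in another line does not make a fall particular to 1 line: with no fold limit, Camk2d, Gss, Sema3e and Nrp2 were lower in all 3 knockouts at an adjusted p under 0.01, Camk2d at log2 FC -0.88 (SE 0.187) in Hmgn2-/- mESCs. Camk2d in Hmgn2-/- mESCs, at log2 FC -0.90, was not under that limit with the replicate number as a block. Over all lists, 8 of 152 genes fell and 0 rose in Hmgn1-/- mESCs, against 707 and 125 of all 13917 genes, and 6 of 153 fell and 1 rose in Hmgn1-/-Hmgn2-/- mESCs, against 706 and 184 of all 14128 genes. With no fold limit, 16 were lower and 17 higher in Hmgn1-/- mESCs, against 1399 and 1013 of all genes, and 15 were lower and 18 higher in Hmgn1-/-Hmgn2-/- mESCs, against 1443 and 1101 of all genes.

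Markers checked the cell type. The 8 stem cell markers, led by Pou5f1, summed to 6091, 6022 and 6214 TMM-scaled CPM in WT, 6087, 6203 and 6539 in Hmgn1-/-, 5627, 6083 and 6776 in Hmgn2-/- and 5613, 6117 and 6287 in Hmgn1-/-Hmgn2-/- mESCs, with 0 of 8 past the threshold in each knockout by edgeR. Single markers moved within the fold limit in opposite directions: Nanog was lower in all 3 knockouts (log2 FC -0.50, SE 0.0814, adjusted p = 0.00152 in Hmgn2-/- mESCs) and Klf4 higher (log2 FC 0.69, SE 0.103, adjusted p = 0.000899 in Hmgn2-/- mESCs). The 11 primitive endoderm markers, with Lamb1 the most abundant in WT and Col4a1 over all libraries, summed to 233, 274 and 277 in WT, 449, 369 and 375 in Hmgn1-/-, 524, 471 and 358 in Hmgn2-/- and 961, 939.6 and 883 in Hmgn1-/-Hmgn2-/- mESCs, and 6, 7 and 10 of 11 rose in these lines. Lamb1, with 169.8 ± 11.7 in WT (SD, n = 3), passed the threshold in none of them (log2 FC -0.10, SE 0.0667, adjusted p = 0.294 in Hmgn1-/- mESCs, log2 FC -0.04, SE 0.0944, adjusted p = 0.811 in Hmgn2-/- mESCs and log2 FC 0.55, SE 0.0677, adjusted p = 4.27e-05 in Hmgn1-/-Hmgn2-/- mESCs). The part of these markers in the levels of the 10 genes was not tested. The 7 trophoblast markers, led by Krt8, summed to 323, 367 and 502 in WT, 82.5, 80.5 and 109 in Hmgn1-/-, 113, 115 and 152 in Hmgn2-/- and 93.6, 107 and 120.2 in Hmgn1-/-Hmgn2-/- mESCs, with 3 of 6 tested lower in each. The 7 fibroblast markers, led by Thy1, were low throughout, at 21.2, 17.5 and 22.1 in WT, 6.99, 5.83 and 6.48 in Hmgn1-/-, 6.39, 7.08 and 6.897 in Hmgn2-/- and 5.99, 8.94 and 7.705 in Hmgn1-/-Hmgn2-/- mESCs, with Lum at 0 counts in all libraries and 3 of 4 tested lower in each knockout.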

How the data were processed

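RNA of WT, Hmgn1-/-, Hmgn2-/- and Hmgn1-/-Hmgn2-/- v6.5 mESCs was measured in 12 libraries. The authors aligned reads to mm10 with STAR and deposited whole-number counts for 23412 genes without normalization; the counting program, annotation and use of strand are not given in the sources used here. Libraries were grouped by their labels. Tests were run in R 4.3.3 with edgeR 4.0.16 (TMM factors 0.970 to 1.02, filterByExpr, quasi-likelihood test, Benjamini-Hochberg adjustment) on the 6 libraries of each comparison, and the steps were tested on simulated data. Alternatives were DESeq2 1.42.0, RLE scaling, library totals, a filter of 1 count, 1 fit of 12 libraries, the replicate number as a block, no fold limit and each library left out. The 10 genes and the lists were chosen with earlier results of these data known. The text names the 10 genes, DEGs of the interval and of the lists, the first gene tested on each side of the interval, and the 5 genes outside it with the highest r; other genes were chosen after their values were seen, and the 1 Mb windows were added after seeing the data. Positions come from a RefSeq table of GRCm38.p6 and exon lengths from GENCODE vM21; of the gene names, 21563 matched a symbol, 1713 a synonym and 136 had no match. Same-numbered libraries deviated together from their group means for Hmgn1-/- and WT (r = 0.15 to 0.33), Hmgn1-/-Hmgn2-/- and WT (r = 0.20 to 0.26), Hmgn1-/- and Hmgn2-/- (r = 0.22 to 0.44) and Hmgn2-/- and Hmgn1-/-Hmgn2-/- (r = 0.19 to 0.64), a pairing seen in the data and not stated by the labels. For Hmgn1-/- and Hmgn1-/-Hmgn2-/- each library was closest to its own number, but replicate 2 had r = 0.08, under the limit of 0.1 used. Within each line no library repeated another: pairs differed more than counting error allows. Pairs from different lines were not checked in this way. Intervals cover the spread between the 3 libraries of each line, and each knockout line was 1 clone.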

Additional observations from a re-analysis of the deposited data

Results flagged for a closer look

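The effect of Hmgn1 loss on Slc38a3 was flagged by the difference between its size in the Hmgn2-/- line and in WT, -1.19 on the log2 scale (95% interval -1.85 to -0.54) in an edgeR fit of the 12 libraries. Slc38a3 was chosen from its levels in these same libraries, so the difference is a description, holds as no test and supports no other statement. The same interval lay below 0 for Gnai2 as well (-0.23, 95% interval -0.41 to -0.05) and held 0 for the other 8 genes. Such differences were common: 1892 of all 14323 genes passed an adjusted p of 0.05 for it, so nothing particular to these genes is read from them. Slc38a3 was 217% of WT in Hmgn1-/- mESCs, and Hmgn1-/-Hmgn2-/- mESCs had 95.1% of the Hmgn2-/- level.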

How the results depend on the processing

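The median level of the 10 genes moved by less than the spread between libraries under all alternatives run: it was 103% to 107% of WT in the Hmgn1-/- line, 48.7% to 52.1% in Hmgn2-/- cells and 48.0% to 49.2% in Hmgn1-/-Hmgn2-/- mESCs. Of 120 values of single genes in each line, 7, 4 and 9 moved by more than the spread, for Slc38a3, Camkv, Usp4, Hyal2 and Gnai2, and 17 of these 20 with a WT library left out. The number of DEGs stayed within 1.5 times except with no fold limit, when it was 2412 in Hmgn1-/- mESCs, 1400 in Hmgn2-/- cells and 2544 in Hmgn1-/-Hmgn2-/- mESCs, against 832, 724 and 890; this setting calls more genes by its construction. It also gave 2 block genes in Hmgn1-/- mESCs, 10 in Hmgn2-/- cells and 10 in Hmgn1-/-Hmgn2-/- mESCs, against 1, 4 and 6 with the fold limit. With each library left out, block genes past the threshold numbered 0 to 1 in Hmgn1-/- mESCs (0 without WT replicate 3), 2 to 5 in Hmgn2-/- mESCs (2 without WT replicate 2 and 2 without Hmgn2-/- replicate 1) and 5 to 7 in Hmgn1-/-Hmgn2-/- mESCs; the cause was not tested. With the replicate number as a block, DEGs numbered 902, 676 and 942, block genes among them 1, 3 and 6, and the median levels were 105%, 50.8% and 48.8% of WT. In that fit Sema3b in Hmgn2-/- mESCs was no longer past the threshold, nor under the adjusted p limit alone. Same-numbered libraries of Hmgn2-/- cells and WT had correlations of 0.12, 0.34 and 0.08, the last not the highest for its number, so between these 2 lines the number is not read as a pairing. In the comparisons of knockouts, the replicate number as a block was chosen after seeing the data: against Hmgn2-/- mESCs genes past the threshold in the double knockout then numbered 32 against 6, with 0 block genes in both fits and a median of 95.5% against 95.2%, and against Hmgn1-/- mESCs they numbered 95 against 70, with 8 block genes in both fits. Among genes of the interval and the lists against WT, the block also took Gss in Hmgn1-/- mESCs (log2 FC -0.995) and Gnat1 and Mst1 in Hmgn2-/- mESCs out of the DEGs and brought in Sema3c in Hmgn1-/- mESCs and Rassf9 in the double knockout; with no fold limit, Camk2d in Hmgn2-/- mESCs was no longer under the adjusted p limit, and other genes near that limit crossed it. Sema3b and Slc38a3 had 38 and 27 counts in their lowest libraries, and their intervals are the widest of the 10. The part of depth in these widths was not tested.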
